A study of Mus musculus with 6 samples.

Results

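The genes described here are 9 genes of glycogen use in the mouse: the 5 genes of the phosphorylase kinase subunits (Phkb, Phka1, Phka2, Phkg1 and Phkg2), the glycogen phosphorylases Pygb and Pygl, the glycogen synthase Gys1 and the branching enzyme Gbe1. They were picked by symbol from 24848 genes, and all 9 were found. The set was built around Phkb because Phkb was lower in brains labelled E4f1 KO, so the difference of Phkb between the groups is given as a description, with no p-value. RNA-seq was done on brains dissected from mouse embryos at stage E14.5, 3 labelled WT and 3 labelled E4f1 KO, and the labels give every library a number of its own. Where 3 values per group are listed below, they follow the order of libraries 1, 2 and 3. E4F1 is a zinc finger transcription factor. The labels used here do not say which exons the E4f1 allele lacks, which cells carry the deletion, whether a Cre driver was used, how much of the brain was taken, or which strain or litters the embryos came from.

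Glycogen is the branched glucose store of animal cells. Glycogen phosphorylase releases glucose 1-phosphate from its chain ends, and it becomes active when phosphorylase kinase phosphorylates it. Phosphorylase kinase is built from copies of 4 subunits. The gamma subunit is the catalytic one, alpha and beta are large regulatory subunits through which hormone signals act, and delta is calmodulin, which makes the enzyme sensitive to calcium. Alpha and gamma each have a muscle form (Phka1, Phkg1) and a liver form (Phka2, Phkg2), whereas beta is made from Phkb alone. In the brain, glycogen is held mainly in astrocytes.

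Phkb lies on chromosome 8 (85840853 to 86064251, RefSeq, GRCm38.p6) and is transcribed away from Itfg1, which runs the other way (85717557 to 85840949). These RefSeq gene spans overlap by 97 bases, because the outermost start of Phkb lies inside Itfg1. RefSeq's promoter table uses another start of Phkb, at 85840988, which lies 39 bases outside Itfg1. The 250 bases before and 50 bases after that start are shown, plus strand, because both genes begin inside them. The capitals mark the 40 bases from the start of Itfg1, at 85840949, to the start of Phkb in the promoter table, both included.

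Phkb, chr8:85840738-85841037: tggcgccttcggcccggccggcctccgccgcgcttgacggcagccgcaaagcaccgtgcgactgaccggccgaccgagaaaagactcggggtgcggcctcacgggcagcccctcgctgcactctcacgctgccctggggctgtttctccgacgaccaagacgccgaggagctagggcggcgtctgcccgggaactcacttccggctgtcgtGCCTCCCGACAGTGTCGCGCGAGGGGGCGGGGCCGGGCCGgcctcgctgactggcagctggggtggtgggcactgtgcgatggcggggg

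The window is 73.3% G and C, against a median of 52.7% over 32851 RefSeq promoter windows of the same length. The core TGACGT, which sites of E4F1 share with those of CREB and ATF factors, was searched on both strands and was not in the windows of Phkb, Itfg1 or the other 8 genes. Over all windows, 7.51% held it, and 0.499% held the longer TGACGTAA, which contains it. CCGGAAGT, an ETS factor motif searched after the sequence had been seen, occurs once in the Phkb window on the minus strand and in 3.89% of all windows. A match or its absence describes letters in 300 bases and nothing more.

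The 6 libraries held between 42113465 and 74064707 expected counts, and 15848 genes were expressed highly enough to be tested. The targeted gene E4f1 stood between 20.7 and 21.6 CPM (counts scaled to TMM-adjusted library size) in WT and between 6.92 and 7.12 CPM in KO, a ratio of 0.330 (edgeR adjusted p = 0.00142). Neuronal and radial glial markers were present in every library, the 8 neuronal ones summing to between 5034 and 7356 CPM. The libraries also differed in ways the labels do not give. A midbrain score, averaging log2 CPM over the genes En1, En2 and Pax5, read 4.12, 3.18 and -0.19 for the WT brains and lay between -3.05 and -1.31 for the KO brains. Skeletal muscle markers (10 genes, Pygm among them) summed to 7.68, 11.5 and 5.04 CPM (WT) and to 6.69, 23.4 and 42.6 CPM (KO). Judged by Xist and the Y-linked Ddx3y, WT 1, KO 1 and KO 3 were female and the other 3 brains male.

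Among the 9 genes, Phkb was the one that stood well apart between the groups. WT brains gave 37.2, 28.3 and 28.3 CPM, KO brains 12.8, 15.5 and 15.1 CPM. The groups did not overlap, and the lowest WT library was well above the highest KO library. The mean went from 31.3 ± 5.09 to 14.4 ± 1.44 CPM (SD, n = 3 per group), a ratio of 0.462 and a log2 fold change of -1.12 ± 0.14 (SE). The fitted value kept its sign in all 19 other fits, between -1.21 and -0.75. All of them reuse libraries in which Phkb was chosen for its fall, so the kept sign is a description and no support. The smallest size, -0.75 ± 0.21, came with the midbrain score as a covariate, a score that was higher in every WT library than in any KO library. WT 1, the library with the highest midbrain score, also had the highest Phkb level, and without it the value was -0.97 ± 0.11. WT 2 and WT 3, with unlike midbrain scores of 3.18 and -0.19, both had 28.3 CPM of Phkb. The part of brain region in the difference cannot be told apart from genotype in these 6 brains. In bulk tissue, fewer cells of a type and less RNA per cell cannot be told apart either.

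**Figure D1:**
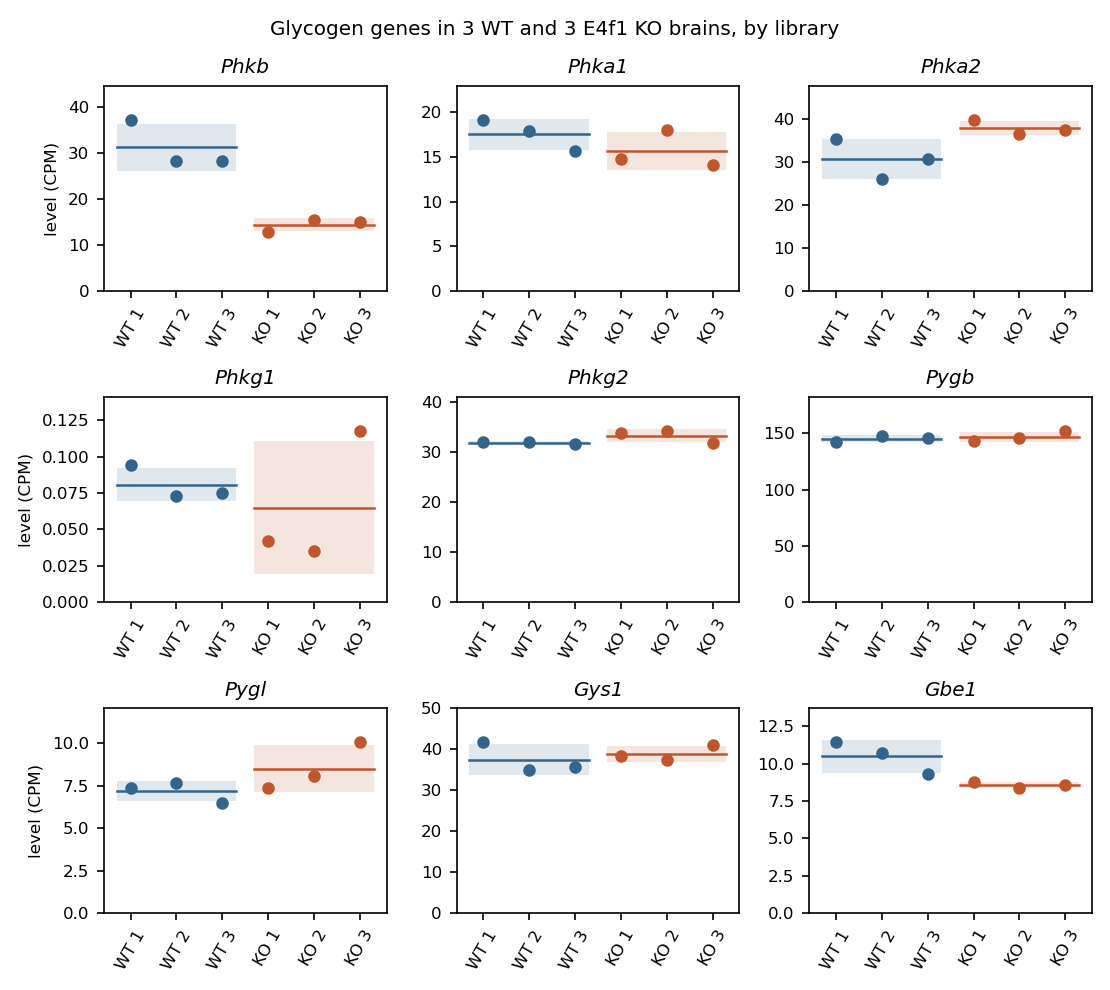
Level of each of the 9 genes (y axis, CPM, from 0) in each library (x axis, WT in blue and KO in orange); points are single brains, lines are group means and shaded bands are 1 SD. Phkb has all 3 KO points, 12.8 to 15.5 CPM, below the WT points, 28.3 to 37.2 CPM, while Phka2 and Gbe1 separate by much smaller amounts and Phkg1 is near 0.

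Of the 9 genes, 8 were expressed highly enough to enter the fit, and Phkb, whose difference chose the set, is left out of the counts of calls. None of the other 7 was called at an adjusted p of 0.05, higher or lower. Over all tested genes the share called was 1%, with 0.492% called lower and 0.511% called higher. The 7 genes had log2 fold changes between -0.29 and 0.30 with a median of 0.05, against a median of 0.00 over all tested genes. Of these 7, 1 lower gene (Gbe1) and 1 higher gene (Phka2) had an unadjusted p below 0.05, which 19.6% of all tested genes had. DESeq2, which called 8.87% of the genes it tested, limma on log2(TPM + 1), which called 1.73%, and limma-voom called none of the 7 either. Groups did not overlap in 2 of these 7 genes, Phka2 and Gbe1, near the share of 27.6% over all tested genes.

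The 2 alpha subunit genes, both on the X chromosome, leaned in opposite directions without passing the test. For Phka2 (160501904 to 160598879), the liver form, WT brains gave 35.3, 26.1 and 30.7 CPM and KO brains 39.7, 36.4 and 37.5 CPM. All 3 KO libraries were above the highest WT library, WT 1, by a small margin. The log2 fold change of Phka2 was 0.30 ± 0.12 with a 95% interval from 0.02 to 0.59 (edgeR adjusted p = 0.233). With the log2 CPM of Xist as a covariate it was 0.18 ± 0.10, and without WT 2 it was 0.20 ± 0.09. This covariate stands for the sex of the embryo only in part. Xist was at 16.2 CPM in the male KO 2, against 0.36 and 0.45 CPM in the males WT 2 and WT 3. For Phka1 (102513975 to 102644301), the muscle form, WT brains gave 19.1, 17.9 and 15.7 CPM and KO brains 14.8, 18.1 and 14.1 CPM, with overlapping groups. Its log2 fold change was -0.17 ± 0.13, with an interval from -0.48 to 0.15 (edgeR adjusted p = 0.512), and turned to 0.17 ± 0.21 with the midbrain score as a covariate.

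Compared per length, in TPM, Phka2 gave the larger part of the alpha transcripts. Its share of the summed TPM of Phka1 and Phka2 was 71.3%, 66.1% and 72.5% for WT and 78.2%, 73.0% and 78.1% for KO. The means were 70.0% ± 3.38 and 76.4% ± 2.96 (SD, n = 3 per group), and the groups did not overlap, by a margin of less than 1 percentage point between WT 3 and KO 2. The exact permutation test, two-sided, gave p = 0.1, which is the smallest p that 3 brains against 3 allow (0.433 adjusted over the 13 shares, ratios and lengths tested in this way).

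The catalytic gamma subunit came almost wholly from Phkg2. Phkg2 (chromosome 7, 127573345 to 127583307) gave 31.9, 31.9 and 31.4 CPM for WT and 33.8, 34.1 and 31.7 CPM for KO, so KO 3 lay within the WT range. Its log2 fold change was 0.06 ± 0.06, with an interval from -0.09 to 0.22 (edgeR adjusted p = 0.612). Phkg1 (chromosome 5, 129863431 to 129879134) had between 2 and 7 counts per library and was not tested, and Phkg2 made up between 99.80% and 99.93% of the gamma TPM. In GENCODE, exons of Phkg2 share 876 bases with the antisense gene Ccdc189, which was low at 2.58 to 3.65 CPM. Such overlaps also exist for Gys1 (310 bases, Ruvbl2), Phkg1 (630 bases, Sumf2) and Phka2 (115 bases, Gm15243). Ruvbl2, the partner of Gys1, had means of 69.3 ± 8.09 CPM for WT and 83.2 ± 3.92 CPM for KO (SD, n = 3 per group). No source used here states how the counting treated strand. The expected counts of Phkg2, Ccdc189, Gys1, Ruvbl2, Phkg1 and Sumf2 were whole numbers in every library, so the counting did not divide reads between these pairs. Whether reads of an antisense partner were counted for a gene was not tested.

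Set against the other subunits per length, Phkb was near Phka2 in WT and well below it in KO. In the WT brains Phkb had 21.3, 16.3 and 16.2 TPM beside 20.3, 14.98 and 17.6 TPM of Phka2. In the KO brains Phkb had 7.31, 8.73 and 8.35 TPM beside 22.6, 20.6 and 20.7 TPM of Phka2. Phkb was above Phka2 in WT 1 and WT 2 and below it in the other 4 brains. The TPM of Phkb over the summed alpha genes was 0.711 ± 0.042 in WT and 0.292 ± 0.034 in KO (SD, n = 3 per group). Alpha over gamma was 0.437 ± 0.052 and 0.469 ± 0.008 (exact permutation p = 0.4, two-sided, n = 3 per group). These ratios compare transcripts, not protein, and the first carries the chosen difference of Phkb within it.

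**Figure D2:**
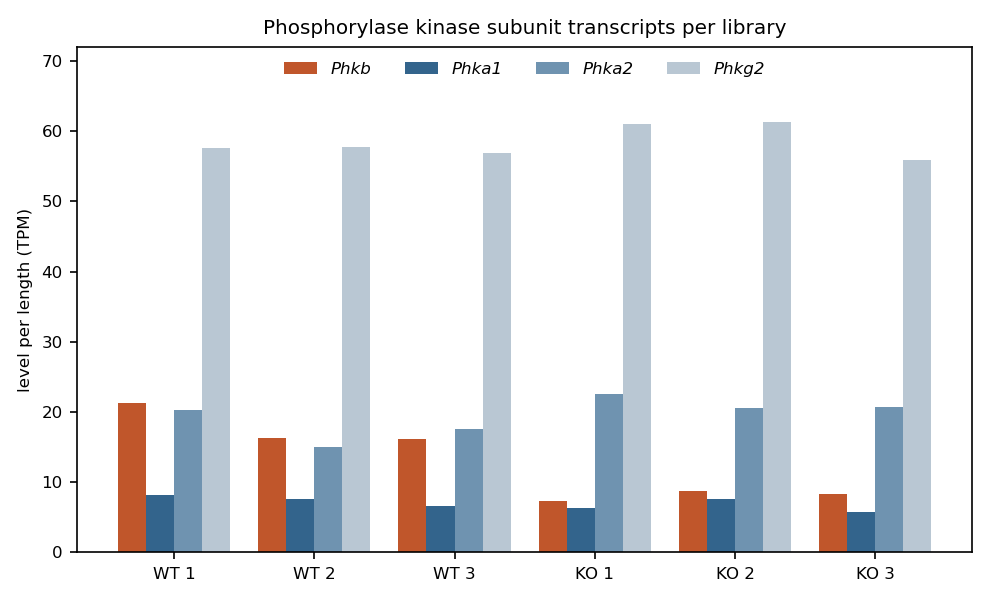
Transcript level per length (y axis, TPM, from 0) of the phosphorylase kinase genes Phkb, Phka1, Phka2 and Phkg2 in each of the 6 brains (x axis); bars are single libraries. Phkb and Phka2 bars are of like height in WT (Phkb 16.2 to 21.3 TPM), while in KO Phkb is at 7.31 to 8.73 TPM beside Phka2 at 20.6 to 22.6 TPM.

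Calmodulin, the delta subunit, serves many other enzymes besides phosphorylase kinase. Its genes Calm2 and Calm3 were not called and had log2 fold changes of -0.08 ± 0.07 and -0.20 ± 0.15, with overlapping groups (edgeR adjusted p = 0.579 and 0.494). Of the 8 neuronal markers, 4 (Tubb3, Map2, Dcx and Stmn2) were lower in every KO library than in any WT library, which held for 13% of all tested genes. None of the 8 was called, and Snap25 and Neurod6 had positive log2 fold changes of 0.20 and 0.17. The summed neuronal level was 6246 to 7356 CPM in WT and 5034 to 5508 CPM in KO. Its part in the values of these genes was not tested.

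The phosphorylases, the substrates of the kinase, showed no difference past the test. For Pygb (chromosome 2, 150786796 to 150831748), the brain form, WT brains gave 142, 148 and 146 CPM and KO brains 143, 146 and 152 CPM. The ranges overlapped, and the log2 fold change of 0.02 ± 0.06 had an interval from -0.12 to 0.15 (edgeR adjusted p = 0.886). Its sign turned in the fits on TPM (-0.01 in each) and without KO 3 (-0.01). For Pygl (chromosome 12, 70190815 to 70227683), the liver form, WT brains gave 7.38, 7.69 and 6.51 CPM and KO brains 7.39, 8.09 and 10.1 CPM. The groups overlapped, and KO 3 was the highest. Its log2 fold change was 0.24 ± 0.16 (edgeR adjusted p = 0.424), and 0.10 ± 0.14 without KO 3. Of the 5 liver markers, Alb and Gys2 were at or near 0 in every library. Apoa1 was at 0.25 to 0.58 CPM and Afp at up to 0.45 CPM (KO 1), while Ttr stood at 160 to 371 CPM. Microglial and macrophage markers (8 genes, none at 0, 6 of them higher in every KO library and 1, Cx3cr1, called) summed to between 47.7 and 72.9 CPM in WT and between 86.0 and 117 CPM in KO, highest in KO 3 as well. Endothelial markers (6 genes, 5 of them higher in every KO library, none called) summed to between 204 and 244 CPM in WT and between 268 and 368 CPM in KO. Over all tested genes, the groups did not overlap in 27.6%, with KO below in 13%, and 0.511% were called higher. Markers of meninges and mesenchyme (6 genes, none called) summed to 556, 2639 and 1072 CPM for WT and 446, 636 and 5220 CPM for KO, so KO 3 and WT 2 were the highest. Their part in the Pygl values was not tested.

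Per length, Pygb made up 91.3% ± 1.25 of the phosphorylase transcripts in WT and 89.7% ± 1.32 in KO (SD, n = 3 per group; exact permutation p = 0.3, two-sided). Pygl made up 6.28% ± 0.47 and 7.19% ± 0.84 (exact permutation p = 0.3, n = 3 per group). Pygm, the muscle form, made up the rest, at 1.94 to 4.11 CPM in WT and 3.10 to 4.68 CPM in KO (log2 fold change 0.41 ± 0.32, edgeR adjusted p = 0.509). This value for Pygm was 0.77 without WT 2, 0.20 without WT 3 and 0.23 without KO 3. KO 3, the library with most Pygm, also had the highest sum of muscle markers. KO 2, with the second highest sum, had 3.10 CPM of Pygm, less than WT 2.

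Gys1, which lengthens the glycogen chain, did not differ beyond its spread. It lies on chromosome 7 (45434839 to 45456617). WT brains gave 41.7, 35.0 and 35.5 CPM and KO brains 38.3, 37.2 and 40.9 CPM, all 3 KO values within the WT range. The log2 fold change was 0.05 ± 0.09, with an interval from -0.17 to 0.27 (edgeR adjusted p = 0.772), and turned negative with Xist as a covariate (-0.05) and when both libraries numbered 3 were left out (-0.02). The liver synthase Gys2 had 0 to 2 counts per library. For Gbe1 (chromosome 16, 70313949 to 70569720), which makes the branch points, WT brains gave 11.4, 10.7 and 9.28 CPM and KO brains 8.77, 8.39 and 8.58 CPM. Every KO library was below the lowest WT library, but the gap between WT 3 and KO 1 was small. The log2 fold change of Gbe1 was -0.29 ± 0.12, with an interval that ends just below 0 (edgeR adjusted p = 0.250), and it shrank to -0.04 ± 0.21 with the midbrain score as a covariate.

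A further 31 genes of the pathway, listed by function, were found in the tables, and 28 of them were tested. None was called by edgeR, 20 had a negative and 8 a positive log2 fold change, and the median was -0.10, against 0.00 over all tested genes. Without adjustment, 5 lower and 2 higher genes of the 28 had p below 0.05, which 19.6% of all tested genes had. DESeq2, which called 8.87% of the genes it tested, called 1 of these genes, Pgm1, and limma called none. Among genes of synthesis, Pgm1, a phosphoglucomutase, gave 23.1, 20.5 and 23.7 CPM for WT and 29.9, 25.9 and 31.4 CPM for KO (0.38 ± 0.10, edgeR adjusted p = 0.141; DESeq2 adjusted p = 0.0449). Ugp2, which makes UDP-glucose, had 0.17 ± 0.06 (edgeR adjusted p = 0.208), with every KO library higher.

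Regulators leaned lower, 14 of 15 tested having a negative log2 fold change with a median of -0.20, and none was called. Of all tested genes, 7939 of 15848 had a negative value. Unadjusted p was below 0.05 in 3 of the 15 regulators, against 19.6% of all tested genes. Groups did not overlap in 3 of the 15, against 27.6%. Ppp1r3c, which brings protein phosphatase 1 to glycogen, gave 6.73, 11.1 and 5.52 CPM for WT and 4.56, 4.19 and 4.90 CPM for KO. Its log2 fold change was -0.77 ± 0.27 (edgeR adjusted p = 0.206), and WT 2 was far above the other WT libraries. Without WT 2 it was -0.43. The meningeal markers summed to 2639 CPM in WT 2, the most of the WT brains, and to 5220 CPM in KO 3, which had 4.90 CPM of Ppp1r3c. The part of meninges in these values was not tested. Ppp1r3e, another glycogen-targeting subunit, had -0.50 ± 0.20 and Gsk3b, a kinase that inhibits glycogen synthase, -0.27 ± 0.08 (edgeR adjusted p = 0.237 and 0.167). For Ppp1r3e the value was -0.30 without WT 2 and -0.27 with Xist as a covariate.

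**Figure D3:**
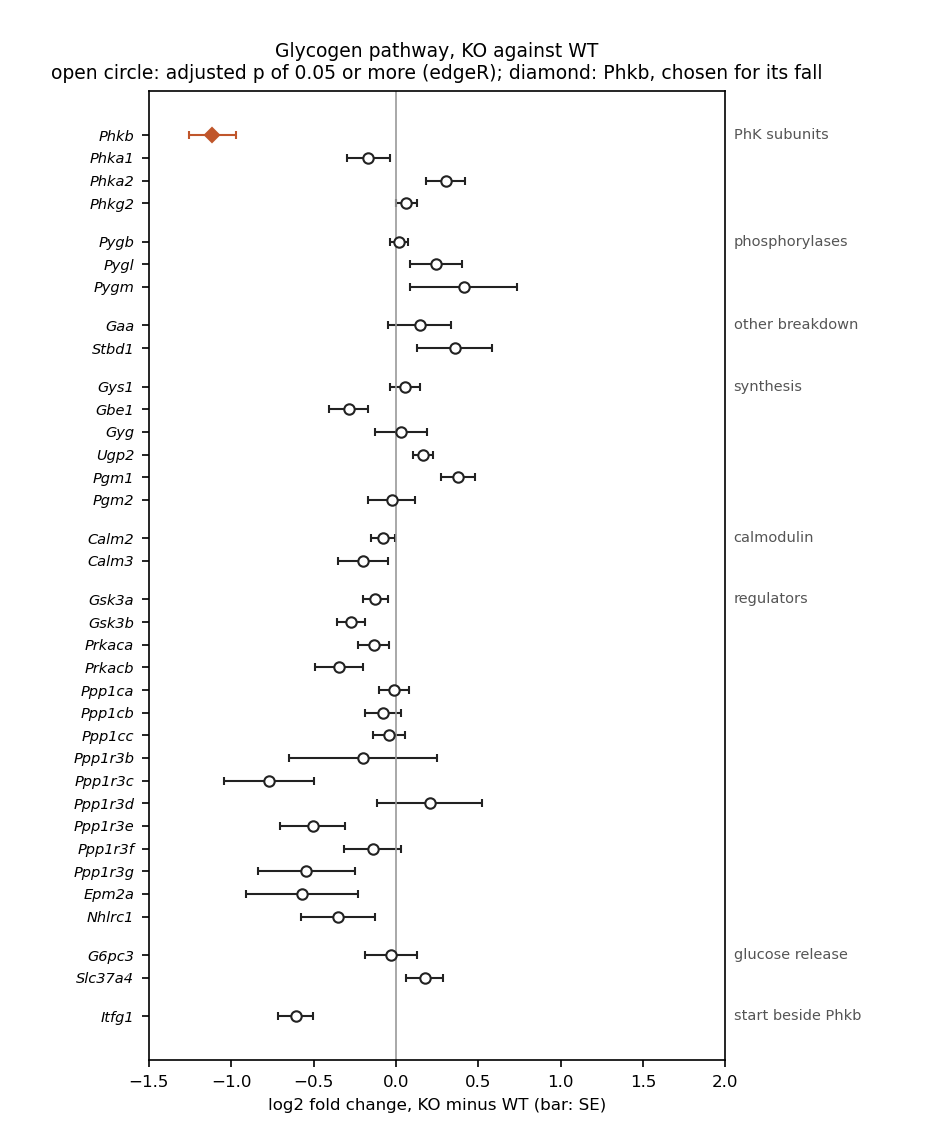
Log2 fold change of KO against WT (x axis; bars are SE, 3 brains per group) for tested genes of glycogen use, by role, and for Itfg1. Phkb (diamond, -1.12) was chosen for its fall; all circles are open, which means an adjusted p of 0.05 or more, and they run from -0.77 (Ppp1r3c) to 0.41 (Pygm).

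Itfg1, which encodes a membrane protein, is the only gene of the tables whose GENCODE start lies within 1000 bases of a start of any of the 9, at 38 bases from that of Phkb. For Itfg1, WT brains gave 138, 166 and 145 CPM and KO brains 98.5, 108 and 88.0 CPM. The groups did not overlap, which was so with KO below for 13% of all tested genes. The ratio was 0.656 and the log2 fold change -0.61 ± 0.11, with an interval from -0.86 to -0.35. Itfg1 was not called by edgeR (adjusted p = 0.0611). DESeq2 and limma on log2(TPM + 1) called Itfg1 lower (adjusted p = 5.27e-05 and 0.0498), and limma-voom did not (adjusted p = 0.0583). The order of the libraries within the groups was not that of Phkb, since WT 1 was highest for Phkb and lowest of the WT libraries for Itfg1. The next genes on the other side, Abcc12 and Lonp2, begin far away and had 0.08 ± 0.41 and -0.05 ± 0.05 (edgeR adjusted p = 0.933 and 0.621). The microRNA Mir8109, next beyond Itfg1, had no counts.

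**Figure D4:**
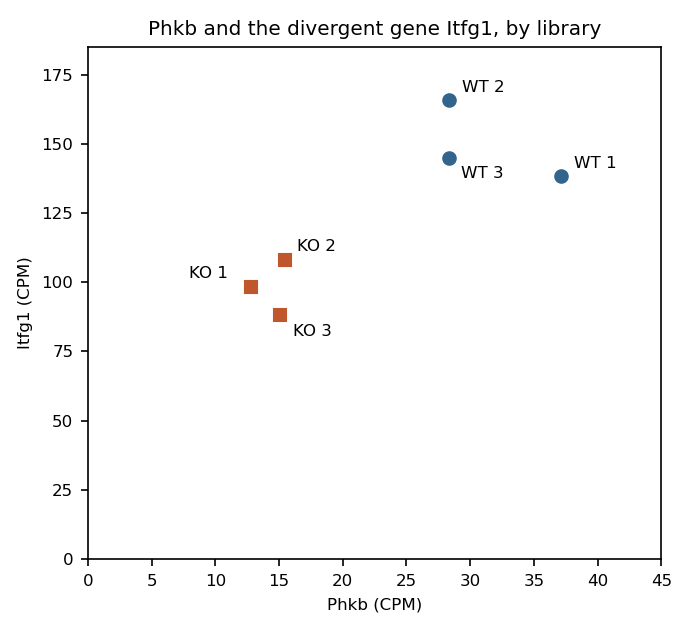
Level of Itfg1 (y axis, CPM) against that of Phkb (x axis, CPM), both axes from 0, in the 3 WT (circles) and 3 KO (squares) brains. The KO brains lie lower on both axes, at 12.8 to 15.5 CPM of Phkb and 88.0 to 108 CPM of Itfg1, and WT 1 has the most Phkb but not the most Itfg1.

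With predicted models and sex-linked genes set aside, the 5 genes whose log2 CPM followed that of Phkb most closely over the 6 libraries were Lipo3, Emc8, Fam207a, Pex19 and Slc39a9, with Pearson's r between 0.992 and 0.997. The 6 points share the group difference and the high value of WT 1, so r is a description. Genes chosen for following Phkb were bound to lean lower in KO, so their fold changes and calls are a description too. Their log2 fold changes were -0.82 ± 0.15 for Lipo3 and between -0.23 and -0.13 for the other 4. None was called by edgeR. DESeq2, which called 8.87% of the genes it tested, called Lipo3, Emc8 and Slc39a9. Of the 9 genes, Gbe1 followed Phkb most closely, with r = 0.884, and Phka2 and Phkg2 ran opposite, with -0.649 and -0.661.

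The deposited transcript lengths bear on isoforms in 4 of the 9 genes, since the tables list a single transcript for Phkb, Pygb, Pygl, Gys1 and Gbe1. The effective length of Phkb, 4393 to 4404 bases, therefore follows the fragment lengths of a library alone, and it differed by -3.61 bases between KO and WT. Phka2, with 5 listed transcripts, had a mean length of 4607 ± 23 bases in WT and 4623 ± 13 in KO (SD, n = 3 per group; exact permutation p = 0.4). Phkg2, with 2, had 1612 ± 4.52 and 1605 ± 1.80 bases (n = 3 per group), and no overlap between the groups at the smallest exact permutation p of 0.1.

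Across the 19 other fits, the log2 fold change of Itfg1 stayed between -0.68 and -0.50. Phka2 ran from 0.18 to 0.41 and Gbe1 from -0.37 to -0.04, each without a change of sign.

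**Figure D5:**
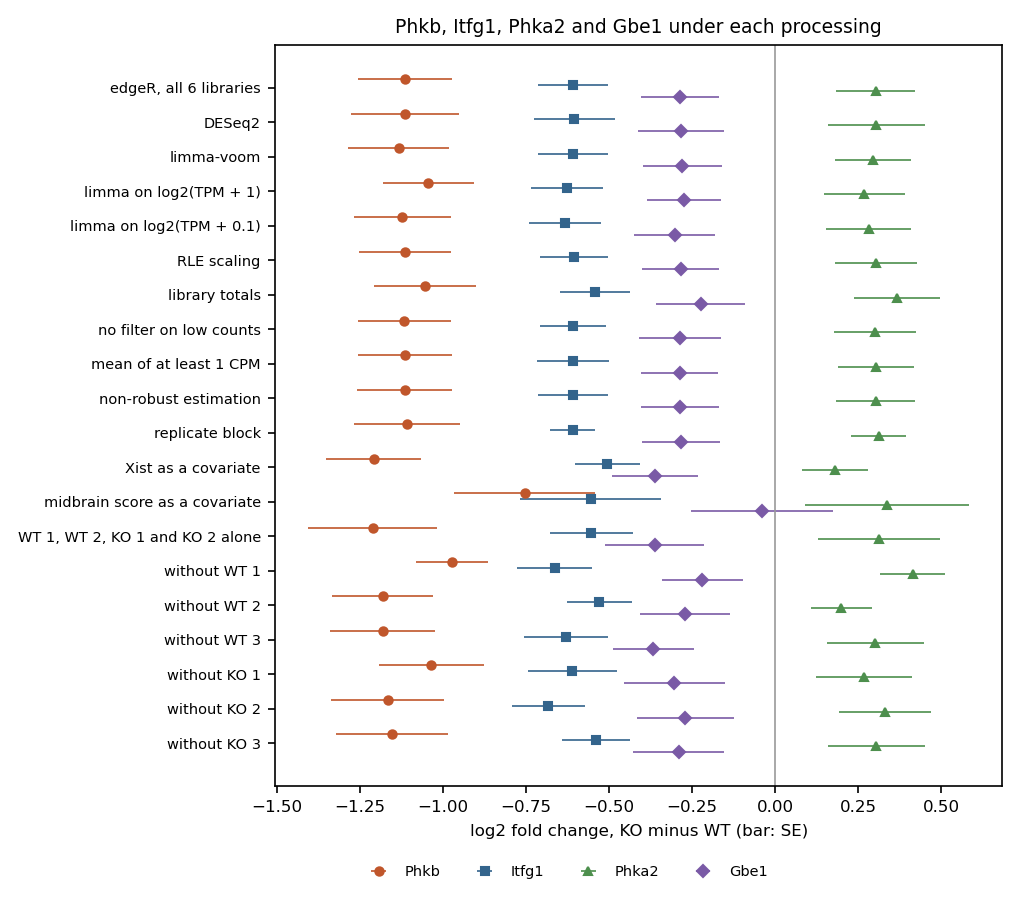
Log2 fold change of KO against WT (x axis; bars are SE) of Phkb, Itfg1, Phka2 and Gbe1 under the main fit and each of the 19 others (y axis). Phkb lies between -1.21 and -0.75 in all 20, and the fit with the midbrain score is where Phkb and Gbe1 move most toward 0.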

How the data were processed

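The authors deposited, per the file headers, 1 RSEM table per library holding, for each gene, transcript lengths in bases, the TPM, the FPKM (not used) and an expected count. Tools listed in the submitters' processing notes are STAR 2.5.3a, RSEM 1.2.28, Trimmomatic and FastQC, with mm10 and GRCm38 as builds, and no settings are stated there; per the labels' protocols a stranded mRNA kit was used. Expected counts were rounded and tested with edgeR 4.0.16 (filterByExpr, TMM, robust quasi-likelihood F test, two-sided, Benjamini and Hochberg adjustment over 15848 genes, threshold 0.05). The SE is that of the F statistic, and intervals are 95% intervals from it. CPM are on TMM-scaled library sizes, and log2 CPM used a prior count of 2. Alternatives used DESeq2 1.42.0 and limma 3.58.1. Replicates differed beyond sampling noise (chi-square per degree of freedom 45.1 or more), but litters are not stated, so p-values measure the spread between these brains.

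Members, gene lists and tests were chosen with earlier results of these data known. Named were all 9 genes, pathway genes with an unadjusted p below 0.05, Pygm, Ugp2 and the calmodulins, the 2 genes on each side of Phkb, genes that start within 1000 bases of a member, the 5 genes most like Phkb, and E4f1; other genes were named after their values were seen. The list counts include a few pathway genes whose own values are not reported here. All 9 genes matched RefSeq's GRCm38.p6 gene table and promoter table, and start distances and exon overlaps come from GENCODE M21. Marker lists of 8 tissues or cell types were summed; those of erythroid cells (276 to 885 CPM), hepatocytes (160 to 372, nearly all of it Ttr) and radial glia (736 to 871 in WT, 696 to 739 in KO) are given here only.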

Additional observations from a re-analysis of the deposited data

How the results depend on the processing

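The count of members past the threshold, 1 lower (Phkb, whose difference chose the set, so that the count is no support), became 0 with the replicate number as a block, with Xist or the midbrain score as a covariate, in WT 1, WT 2, KO 1 and KO 2 alone, and in each fit that left out 1 library (0 to 0), although its log2 fold change was between -1.18 and -0.97 in the latter. The other pathway genes held 1 higher call with DESeq2. No member was called higher in any fit. Over all genes, 78 lower and 81 higher calls became 658 and 780 with DESeq2, 122 and 125 with limma on log2(TPM + 1), 121 lower with log2(TPM + 0.1), 63 and 123 with library totals, 42 and 24 with the replicate block, 37 and 28 with Xist, and 0 and 0 with the midbrain score (753 at an unadjusted p below 0.05) and in the 4 libraries alone (1546). Without 1 library they were 24 to 42 lower and 12 to 40 higher. The fits on 4 or 5 libraries have fewer samples, and for the others the cause was not tested.

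Whether the replicate numbers pair the brains was not settled. The deviations of WT and KO libraries with the same number correlated at 0.121, 0.173 and 0.016. Those of libraries with different numbers correlated between -0.235 and 0.120. These few weak values cannot decide the question. With the replicate number as a block, Phkb had -1.11 ± 0.16. Signs turned for Phka1 with the midbrain score (0.17), for Pygb in the limma fits with a pseudocount of 1 (-0.0077 on log2 TPM) and of 0.1 (-0.0077) and without 1 library (-0.011 to 0.036), for Gys1 with Xist (-0.046) and in the 4 libraries (-0.018), for Abcc12 without 1 library (-0.24 to 0.31, negative without WT 1 at -0.18 and without KO 2), and for Lonp2 with library totals (0.015). Leaving out 1 library gave share differences of -2.22 to -0.85 percentage points for Pygb, 0.45 to 1.27 for Pygl and 0.33 to 1.19 for Pygm, and log2 fold changes of -0.28 to -0.10 for Phka1, 0.01 to 0.14 for Gys1, -0.13 to -0.03 for Calm2 and -0.33 to -0.08 for Calm3. With the midbrain score, Pygl had 0.50, Pygm 1.02, Gys1 0.20, Calm3 -0.03, Calm2 -0.14, Ppp1r3c -0.24 and Pgm1 0.23; in the 4 libraries alone, Pygl had 0.04 and Pygm 0.02. Scaling by library totals shifted the median of all genes by 0.06. At 2 to 7 counts per library, Phkg1 is too shallow to compare.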
